A study of Rattus norvegicus with 9 samples.

Results

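Lysosome genes are the 31 genes of this rat dataset that met 2 conditions. Their symbol was among 38 symbols of lysosomal enzymes, lysosomal membrane proteins, proton pump subunits and their regulators, and their mean level reached 1 FPKM (fragments per kilobase of transcript, scaled to library size) over 9 libraries. The table held 26407 rows, of which 11376 genes reached that mean and were tested. Of the 38 symbols 37 had a row, and 6 of these rows fell under the minimum (Ctsc, Ctss, Ctsz, Lamp2, Gla and Atp6ap2). The 31 genes comprised 8 cathepsins and other peptidases, 6 glycosidases, 5 genes of lipid breakdown and cholesterol export, 6 membrane proteins, 4 proton pump genes, the transcription factor gene Tfeb and the autophagy receptor gene Sqstm1.

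Lysosomes are acidic organelles in which hydrolases take apart proteins, sugars and lipids delivered by endocytosis and autophagy. A proton pump, the V-ATPase, keeps them acidic, most of the hydrolases reach them through mannose 6-phosphate tags, and transporters in their membrane export the products. The transcription factor TFEB and its relatives TFE3 and MITF bind CLEAR elements in the promoters of many of these genes, and the kinase mTORC1, which growth factors and amino acids activate, keeps TFEB in the cytoplasm. In vascular smooth muscle, cathepsins are also known to be secreted and to cut elastin and collagen.

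The cells were S31, a line of vascular smooth muscle cells from the cardiac microvessels of male wild-type Wistar Kyoto rats, and all were kept without serum for 48 h before treatment. Poly(A) RNA was sequenced from 3 sets of 3 libraries, named here by their columns in the deposited table, PDGF-NS, IGF-NS and control (LH-NS). The sample records and the column names disagree about the growth factor. The records that point to the PDGF-NS columns name recombinant human IGF-1 at 25 ng/ml and a harvest at 24 h, the records that point to the IGF-NS columns name recombinant rat PDGF-BB at 25 ng/ml and a harvest at 48 h, and the control record names serum-free medium and a harvest at 24 h. No growth factor is therefore assigned to either set below. The harvest times come from the same records, so which treated set was harvested at 48 h is equally unsettled. For the set harvested at 48 h, IGF-NS by the records, treatment and harvest time cannot be told apart. It is therefore not certain that PDGF-NS and control were harvested at the same time. The records do not say whether the 3 libraries of a set came from separate cultures, so the p-values measure the spread between libraries, which may be technical.

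Summed FPKM lay between 616765 and 748000 per library, and the read depth behind the values is unknown. Smooth muscle markers were detected, and their summed FPKM was 276 to 345 in PDGF-NS, 497 to 524 in IGF-NS and 2309 to 3297 in control libraries. In RNA from whole cultures, fewer cells of a type and less RNA per cell cannot be told apart. Of 13 macrophage and leukocyte markers with a row, 7 were listed at 0 in all 9 libraries, among them Ptprc, C1qa and Tyrobp. The summed level of that list was 43.7 to 82.7 FPKM in PDGF-NS, 23.9 to 33.2 in IGF-NS and 18.8 to 29.9 in control libraries, most of it Cd14.

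In PDGF-NS against control, 15 of the 31 lysosome genes rose, 0 fell and 16 did not pass the test. The genes that rose included the protease genes Ctsb and Ctsk, the cholesterol export genes Npc1 and Npc2, the membrane protein genes Cd63 and Scarb2, and 3 of the 4 proton pump genes. In IGF-NS against control 3 rose (Ctsk, Gusb and Atp6v0d1) and 3 fell (Ctsa, Neu1 and Gpnmb). Set directly against IGF-NS, PDGF-NS was higher for 10 genes and lower for 0. Lamp1, Psap, Tpp1, Hexa, Mcoln1 and Atp6ap1 were among those that passed the test in none of the 3 comparisons.

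All calls come from limma on log2(FPKM + 1) over the 11376 genes, with Benjamini-Hochberg adjustment and a threshold of 0.05. The 15 genes that rose in PDGF-NS against control were 48.4% of the 31, beside 20.7% of all genes tested, and the 0 that fell stood beside 10.2% of all genes. With unadjusted p-values under 0.05, limma gave 17 higher and 0 lower. Cd68 is counted here although it reached the minimum mean only through the PDGF-NS libraries and so had to differ, and without it 14 of 30 rose (46.7%). In IGF-NS against control the 3 higher and 3 lower genes were each 9.68% of the 31, beside 17.4% of all genes higher and 7.48% lower. In PDGF-NS against IGF-NS the 10 higher genes were 32.3% of the 31, beside 8.33% of all genes, and the 0 lower genes stood beside 7.55%. There limma gave 20 higher and 1 lower (Ctsh) at unadjusted p-values under 0.05, and without Cd68 9 of 30 were higher (30.0%).

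The median log2 fold change of the 31 genes was 0.40 in PDGF-NS against control, beside 0.13 over all genes tested, and 0.39 without Cd68. It was -0.005 in IGF-NS against control, beside 0.15 over all genes, and 0.45 in PDGF-NS against IGF-NS, beside -0.02. Scaling the libraries to a common sum, to median ratios or by quantile normalization brought the median of all genes in PDGF-NS against control to 0.00414, 0.0117 and -0.0043, and the 15 calls became 9, 10 and 11. The 3 higher calls in IGF-NS against control became 1 (Ctsk) with median ratios, which brought the median of all genes there to 0.00921. The 3 lower calls of that comparison became 4 with median ratios, with Psap added. The 10 calls in PDGF-NS against IGF-NS became 6 with a common sum, where the median of all genes was -0.14 and Ctsh was called lower, and 5 without PDGF-NS library 3, 6 without PDGF-NS library 1 and 6 without IGF-NS library 1.

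**Figure D1:**
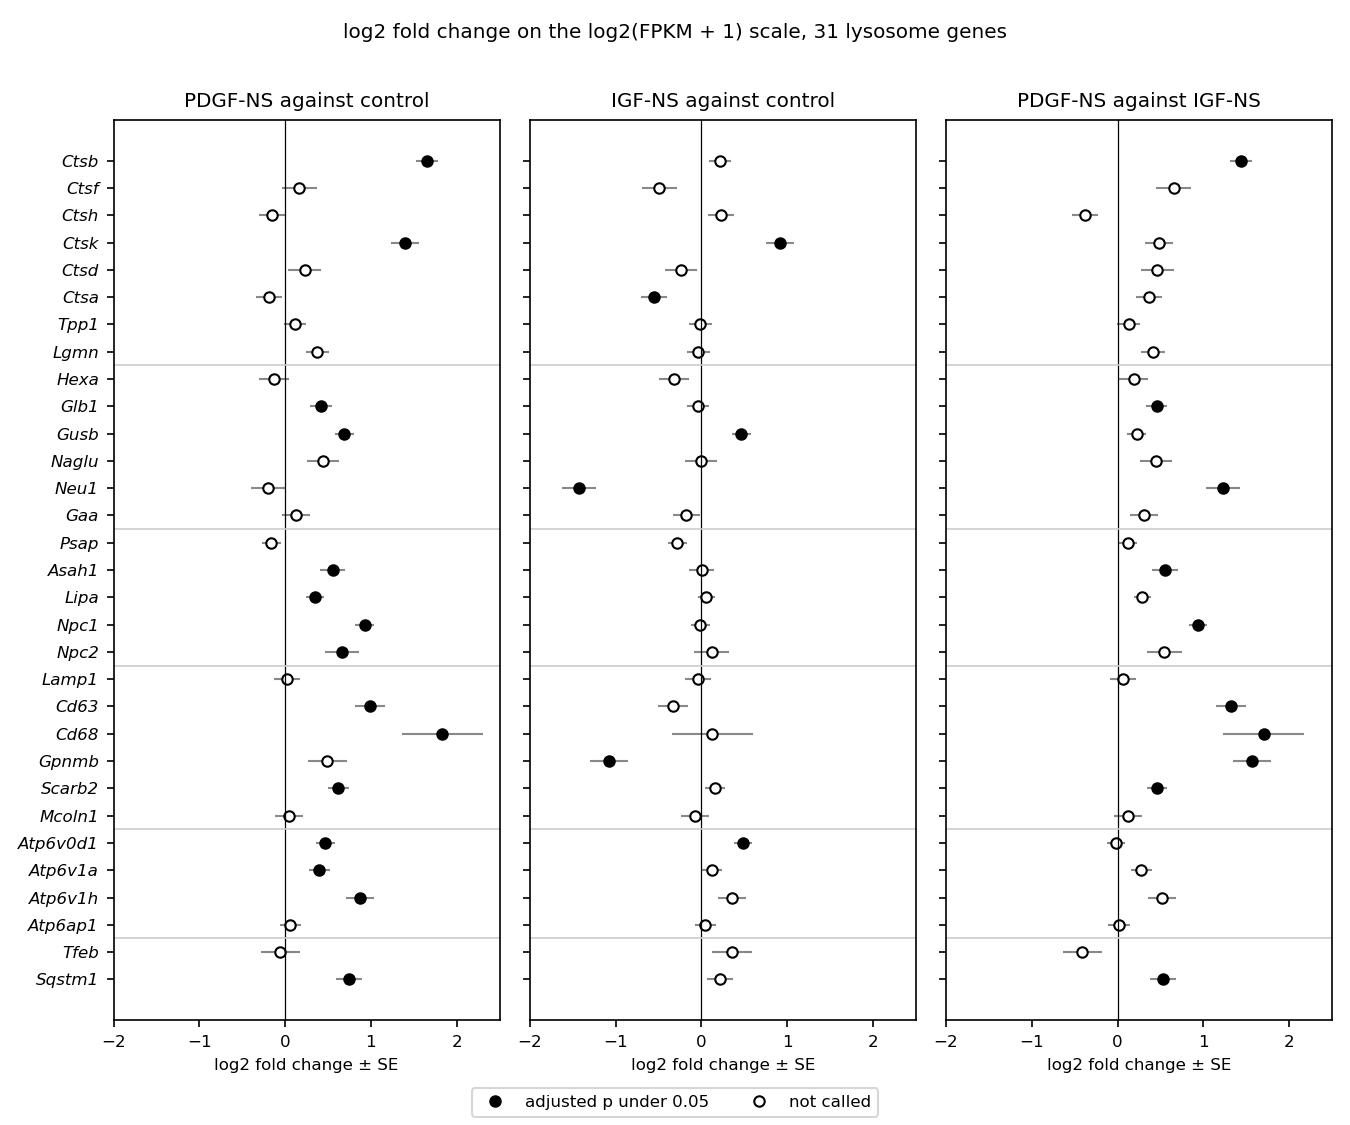
Log2 fold change with its standard error for each of the 31 lysosome genes (rows, grouped by role) in the 3 comparisons (panels). Filled points passed an adjusted p of 0.05: 15 lie to the right of 0 and none to the left in PDGF-NS against control, 3 on each side in IGF-NS against control, and 10 to the right in PDGF-NS against IGF-NS, with Cd68 counted among the 15 and the 10.

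The summed level of the 31 genes describes how much of the measured message they made up, and it was not tested. It was 8896, 7461 and 7620 FPKM in the PDGF-NS libraries, 5281, 4983 and 5333 FPKM in the IGF-NS libraries and 5899, 5736 and 5597 FPKM in the control libraries. The 3 sets did not overlap. The sum was 1.02% to 1.29% of all FPKM in PDGF-NS, 0.79% to 0.81% in IGF-NS and 0.86% to 0.93% in control libraries. Ctsb alone was 16.2% to 17.1% of the lysosome sum in PDGF-NS, 8.82% to 10.2% in IGF-NS and 6.73% to 8.13% in control libraries. By mean FPKM over the 9 libraries, 16 of the 31 genes stood at or above the 90th percentile of the genes tested, led by Ctsb (753), Psap (723) and Cd63 (647), while Tfeb (6.79) and Cd68 (1.62) were lowest.

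**Figure D2:**
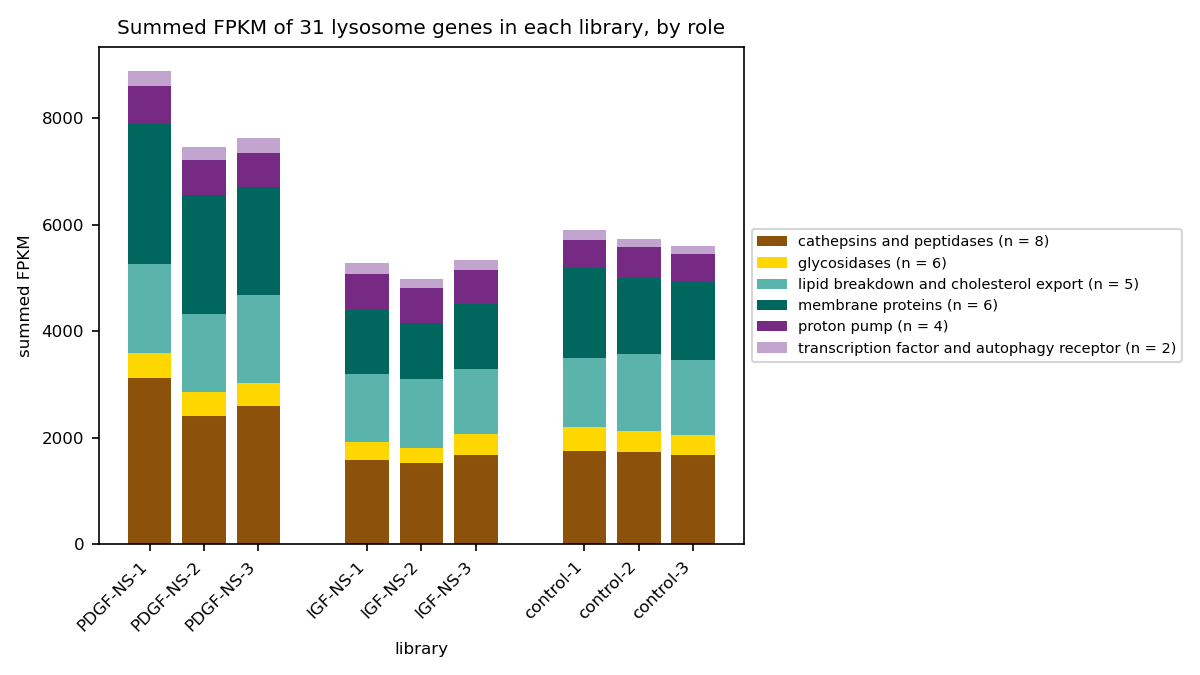
Summed FPKM of the 31 lysosome genes in each of the 9 libraries, with stacked colours for the 6 roles. The PDGF-NS bars reach 7461 to 8896 FPKM, above the IGF-NS bars at 4983 to 5333 and the control bars at 5597 to 5899, and the cathepsin and peptidase segment is 2410 to 3122 FPKM in PDGF-NS, 1520 to 1672 in IGF-NS and 1666 to 1747 in control libraries.

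Among the cathepsins and other peptidases, 2 of 8 rose in PDGF-NS against control, Ctsb and Ctsk, beside 20.7% of all genes tested. The counts by role, here and below, describe few genes and were not tested. Ctsb (ENSRNOG00000010331), which encodes the cysteine protease cathepsin B, had 1517, 1207 and 1301 FPKM in PDGF-NS, 504, 507 and 470 FPKM in IGF-NS, and 397, 422 and 455 FPKM in control libraries. Every PDGF-NS library was more than 2 times as high as any library of the other 2 sets. The log2 fold change was 1.65 ± 0.13 (SE, n = 3 each) in PDGF-NS against control (limma, adjusted p = 1.5e-05) and 1.44 ± 0.13 in PDGF-NS against IGF-NS (adjusted p = 7.1e-05). In IGF-NS against control it was 0.22 ± 0.13, with no overlap between the libraries but an adjusted p of 0.24.

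Ctsk (ENSRNOG00000021155) encodes cathepsin K, a collagen- and elastin-cutting protease best known from osteoclasts. It had 34.7, 30.6 and 34.6 FPKM in PDGF-NS, 27.1, 19.6 and 24.5 FPKM in IGF-NS, and 15.1, 10.5 and 10.9 FPKM in control libraries. The 3 sets were stepped with no overlap. The log2 fold change was 1.40 ± 0.17 in PDGF-NS against control (limma, adjusted p = 0.0002) and 0.92 ± 0.17 in IGF-NS against control (adjusted p = 0.0038), while the step between PDGF-NS and IGF-NS, 0.48 ± 0.17, missed the threshold (adjusted p = 0.08). Markers of osteoclasts were low, with a summed level of 1.57 to 2.99 FPKM in PDGF-NS, 0.47 to 0.91 in IGF-NS and 0.30 to 0.86 in control libraries, most of it Acp5.

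Ctsa, which encodes the carboxypeptidase that protects neuraminidase and beta-galactosidase, was called lower in IGF-NS against control. Its level was 499, 391 and 365 FPKM in PDGF-NS, 320, 283 and 369 FPKM in IGF-NS, and 492, 458 and 468 FPKM in control libraries. The IGF-NS libraries lay under all control libraries, with a log2 fold change of -0.55 ± 0.15 (limma, adjusted p = 0.025), and the PDGF-NS libraries overlapped the control ones (-0.19 ± 0.15, adjusted p = 0.37). The value of 0.36 ± 0.15 in PDGF-NS against IGF-NS did not pass (adjusted p = 0.14). The IGF-NS call was lost without any 1 of the 3 control libraries or without IGF-NS library 1 or 2, with adjusted p between 0.054 and 0.083.

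The remaining 5 peptidase genes passed the test in none of the comparisons. They were Ctsf and Ctsh (cysteine cathepsins), Ctsd (the aspartic protease cathepsin D), Tpp1 (tripeptidyl peptidase) and Lgmn (legumain, an asparagine-specific protease that processes cathepsins). In PDGF-NS against control their log2 fold changes ran from -0.15 for Ctsh to 0.38 for Lgmn (limma, adjusted p = 0.06 for Lgmn). Cathepsin L, whose symbol Ctsl had no row, was listed as Ctsl1, which the RefSeq gene table gives as an older name of Ctsl. It stands outside the rule, with 685, 399 and 460 FPKM in PDGF-NS, 280, 283 and 246 FPKM in IGF-NS, and 192, 308 and 279 FPKM in control libraries. Its log2 fold change was 0.97 ± 0.22 in PDGF-NS against control (adjusted p = 0.0084) and 0.08 ± 0.22 in IGF-NS against control (adjusted p = 0.83).

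The 6 glycosidase genes encode enzymes that strip sugars from glycoproteins, glycolipids and glycosaminoglycans. In PDGF-NS against control 2 of them rose (Gusb and Glb1), beside 20.7% of all genes tested. Gusb (beta-glucuronidase) had 42.5, 42.0 and 43.8 FPKM in PDGF-NS, 34.3, 36.6 and 38.6 FPKM in IGF-NS, and 27.5, 27.4 and 23.8 FPKM in control libraries. Both treated sets lay above all control libraries, by 0.69 ± 0.11 in PDGF-NS (limma, adjusted p = 0.0013) and 0.46 ± 0.11 in IGF-NS (adjusted p = 0.014) on the log2 scale. The IGF-NS call of Gusb was lost with median ratio scaling (0.31, adjusted p = 0.074) and without control library 3 (0.40, adjusted p = 0.051). Glb1 (beta-galactosidase, the enzyme behind the senescence stain) had 74.3, 79.4 and 76.8 FPKM in PDGF-NS, 53.5, 50.7 and 63.6 FPKM in IGF-NS, and 61.1, 59.8 and 51.5 FPKM in control libraries. Its log2 fold change of 0.42 ± 0.13 in PDGF-NS against control (adjusted p = 0.03) lost its call with all 3 scalings (adjusted p = 0.11, 0.094 and 0.11 with a common sum, median ratios and quantiles) and without control library 2 or 3 or any 1 of the 3 PDGF-NS libraries (0.054 to 0.098).

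Neu1, which encodes the sialidase that removes terminal sialic acids, fell in IGF-NS against control. It had 58.9, 81.0 and 83.2 FPKM in PDGF-NS, 29.6, 24.5 and 40.1 FPKM in IGF-NS, and 76.1, 82.4 and 96.3 FPKM in control libraries. All IGF-NS libraries lay under all libraries of the other 2 sets, which overlapped. On the log2 scale the difference was -1.43 ± 0.20 in IGF-NS against control (limma, adjusted p = 0.00093), 1.23 ± 0.20 in PDGF-NS against IGF-NS (adjusted p = 0.0022) and -0.20 ± 0.20 in PDGF-NS against control (adjusted p = 0.48). The products of Neu1, Ctsa and Glb1 are known to sit in one lysosomal complex. Hexa, Naglu and Gaa, which encode a hexosaminidase subunit, a heparan sulfate glucosaminidase and the glycogen-degrading glucosidase, passed the test in no comparison, with log2 fold changes of -0.13, 0.44 and 0.13 in PDGF-NS against control.

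Of the 5 genes of lipid breakdown and cholesterol export, 4 rose in PDGF-NS against control (Npc1, Npc2, Asah1 and Lipa). The share over all genes tested was 20.7%. Npc1 (ENSRNOG00000012016) and Npc2 encode the membrane and the soluble protein that pass cholesterol out of the lysosome, and loss of either causes Niemann-Pick type C disease. Npc1 had 36.2, 34.6 and 33.9 FPKM in PDGF-NS, 18.2, 17.5 and 17.6 FPKM in IGF-NS, and 18.7, 18.4 and 16.6 FPKM in control libraries. The PDGF-NS libraries lay clear of the other 2 sets, which overlapped. On the log2 scale this was a rise of 0.93 ± 0.11 against control (limma, adjusted p = 0.00017) and 0.94 ± 0.11 against IGF-NS (adjusted p = 0.00031).

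Npc2 had 591, 473 and 593 FPKM in PDGF-NS, 375, 385 and 370 FPKM in IGF-NS, and 242, 415 and 413 FPKM in control libraries. Control library 1 was the lowest, and its distance from the other 2 widened the control spread. The log2 fold change in PDGF-NS against control was 0.66 ± 0.20 (limma, adjusted p = 0.032), and the call was lost with common sum scaling (0.52, adjusted p = 0.069) and median ratio scaling (0.53, adjusted p = 0.074). Without control library 1 the value was 0.41 (adjusted p = 0.051), and the call was also lost without PDGF-NS library 1 (adjusted p = 0.093) or 3 (adjusted p = 0.1).

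Asah1 (acid ceramidase) had 264, 198 and 228 FPKM in PDGF-NS, 144, 174 and 150 FPKM in IGF-NS, and 137, 176 and 155 FPKM in control libraries. Lipa (lysosomal acid lipase, which frees cholesterol from its esters) had 69.1, 73.9 and 70.4 FPKM in PDGF-NS, 60.3, 56.7 and 57.1 FPKM in IGF-NS, and 55.5, 54.9 and 56.4 FPKM in control libraries. For both, all PDGF-NS libraries lay above all control libraries, by 0.56 ± 0.15 for Asah1 (limma, adjusted p = 0.017) and 0.35 ± 0.10 for Lipa (adjusted p = 0.024) on the log2 scale. Neither call remained under the 3 scalings, with adjusted p of 0.072, 0.068 and 0.052 for Asah1 and 0.16, 0.13 and 0.16 for Lipa. The Asah1 call was also lost without PDGF-NS library 1 or 3 (0.062 and 0.055), and the Lipa call without control library 2 or 3 or PDGF-NS library 2 or 3 (0.052 to 0.081). Psap, the precursor of the saposins that present lipids to these enzymes, was the second most abundant member. It had 719, 701 and 716 FPKM in PDGF-NS, 696, 657 and 621 FPKM in IGF-NS, and 847, 789 and 760 FPKM in control libraries. Both treated sets lay under all control libraries. The log2 fold change was -0.16 ± 0.11 in PDGF-NS against control (limma, adjusted p = 0.3) and -0.28 ± 0.11 in IGF-NS against control (adjusted p = 0.096). With median ratios the latter was called lower (-0.44, adjusted p = 0.02).

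Of the 6 membrane protein genes, 3 rose in PDGF-NS against control (Cd63, Cd68 and Scarb2), and 4 were higher in PDGF-NS against IGF-NS (those and Gpnmb). Over all genes tested the shares were 20.7% and 8.33%. Cd63, a tetraspanin of late endosomes, lysosomes and exosomes, had 954, 1127 and 972 FPKM in PDGF-NS, 462, 315 and 452 FPKM in IGF-NS, and 591, 463 and 483 FPKM in control libraries. The PDGF-NS libraries were all above the control libraries. The IGF-NS libraries were all below them, libraries 1 and 3 narrowly. The difference on the log2 scale was 0.99 ± 0.17 in PDGF-NS against control (limma, adjusted p = 0.002), 1.33 ± 0.17 in PDGF-NS against IGF-NS (adjusted p = 0.00068) and -0.33 ± 0.17 in IGF-NS against control (adjusted p = 0.19).

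Gpnmb encodes a glycoprotein of lysosomes and melanosomes known as a marker of lysosomal stress and of lipid-laden macrophages. It had 1000, 562 and 529 FPKM in PDGF-NS, 241, 232 and 201 FPKM in IGF-NS, and 504, 415 and 510 FPKM in control libraries. The sets did not overlap, but PDGF-NS library 1 stood far above the other 2 of its set. The log2 fold change was -1.08 ± 0.22 in IGF-NS against control (limma, adjusted p = 0.0074) and 1.57 ± 0.22 in PDGF-NS against IGF-NS (adjusted p = 0.0011). In PDGF-NS against control it was 0.49 ± 0.22 and missed the threshold (adjusted p = 0.12), and without PDGF-NS library 1 it was 0.20 ± 0.15 (adjusted p = 0.36).

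Cd68, a glycoprotein of macrophage lysosomes, was barely expressed, with 9.37, 1.39 and 2.13 FPKM in PDGF-NS, 0.11, 0.78 and 0.12 FPKM in IGF-NS, and 0.25, 0.38 and 0 FPKM in control libraries. It passed the minimum only through the PDGF-NS libraries, so its difference from the other sets is a description and no test is given. PDGF-NS library 1 held most of its signal. PDGF-NS library 1 was also the highest of its set for Cd14, a receptor of macrophages and of other cells, with 80.1, 42.2 and 56.7 FPKM in PDGF-NS, 22.5, 29.9 and 26.4 FPKM in IGF-NS, and 17.4, 26.2 and 26.9 FPKM in control libraries. It was likewise the highest for the melanocyte marker Mlana (9.66, beside 3.87 and 4.33 FPKM). Other markers of these lists did not follow. Pmel had 1.09, 1.02 and 1.21 FPKM in PDGF-NS, and Dct was 0 there. The leukocyte marker Fcer1g had 2.44, 1.15 and 2.10 FPKM in PDGF-NS and 1.22, 2.67 and 2.92 FPKM in control libraries. The melanocyte list of 4 genes summed to 4.89 to 10.7 FPKM in PDGF-NS, 2.75 to 5.44 in IGF-NS and 1.93 to 4.43 in control libraries, with Tyr at 0 in all 9. The part of these markers in the lysosome results was not tested.

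Scarb2, which encodes LIMP-2, the receptor that carries glucocerebrosidase to the lysosome, had 87.0, 87.8 and 84.2 FPKM in PDGF-NS, 62.0, 65.1 and 60.5 FPKM in IGF-NS, and 62.3, 57.7 and 48.3 FPKM in control libraries. All PDGF-NS libraries were higher than all others, and the other 2 sets overlapped. PDGF-NS was higher by 0.62 ± 0.12 on the log2 scale against control (limma, adjusted p = 0.0034) and 0.46 ± 0.12 against IGF-NS (adjusted p = 0.027). The call against IGF-NS was lost without any 1 of the 6 libraries compared (0.051 to 0.085) and with a common sum or quantile normalization (0.11 and 0.062). Lamp1, the abundant coat protein of the lysosomal membrane, had log2 fold changes of 0.03 ± 0.15 in PDGF-NS against control (adjusted p = 0.92) and -0.04 ± 0.15 in IGF-NS against control (adjusted p = 0.87). Its level was 522, 401 and 400 FPKM in PDGF-NS, 382, 405 and 472 FPKM in IGF-NS, and 471, 438 and 385 FPKM in control libraries, with all 3 sets overlapping. Mcoln1, the calcium channel TRPML1, gave 0.05 ± 0.16 in PDGF-NS against control (adjusted p = 0.86).

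**Figure D3:**
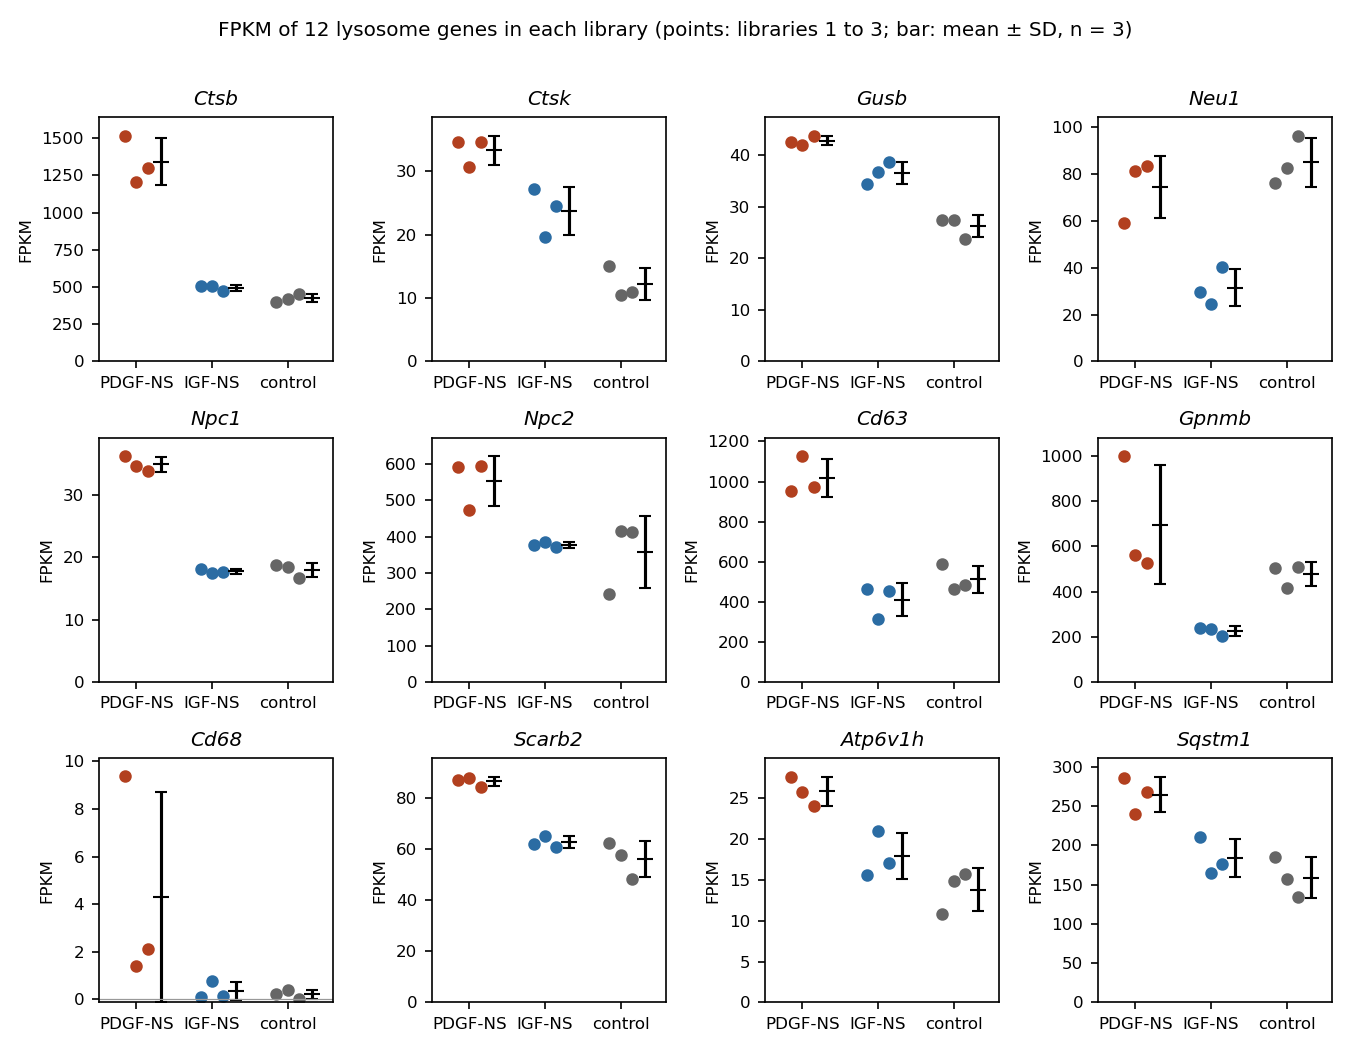
FPKM of 12 lysosome genes in each library (points) with the mean and SD of each set (n = 3). PDGF-NS libraries lie above all others in every panel except Neu1, for Gpnmb narrowly. IGF-NS libraries lie below all others for Neu1, Gpnmb and, narrowly, Cd63. In Cd68 the SD of PDGF-NS reaches below 0 because of 1 library at 9.37 FPKM.

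Of the 4 proton pump genes, 3 rose in PDGF-NS against control, beside 20.7% of all genes tested. Atp6v1h, a subunit of the part of the pump that splits ATP, had 27.6, 25.8 and 24.0 FPKM in PDGF-NS, 15.5, 21.0 and 17.1 FPKM in IGF-NS, and 10.8, 14.9 and 15.7 FPKM in control libraries. The PDGF-NS libraries lay above all others, with a log2 fold change of 0.87 ± 0.16 against control (limma, adjusted p = 0.003), and the value of 0.52 ± 0.16 against IGF-NS missed the threshold (adjusted p = 0.06). Atp6v0d1, which joins the ATP-splitting part to the membrane part, was higher in both treated sets, with 314, 299 and 298 FPKM in PDGF-NS, 328, 307 and 287 FPKM in IGF-NS, and 209, 230 and 219 FPKM in control libraries. The 2 treated sets overlapped each other and lay above all control libraries, by 0.47 ± 0.11 in PDGF-NS (adjusted p = 0.0088) and 0.48 ± 0.11 in IGF-NS (adjusted p = 0.01) on the log2 scale. The PDGF-NS call was lost with a common sum (adjusted p = 0.055) and the IGF-NS call with median ratios (adjusted p = 0.062).

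Atp6v1a, the catalytic subunit, had 55.8, 62.5 and 54.8 FPKM in PDGF-NS, 47.8, 51.3 and 43.6 FPKM in IGF-NS, and 39.3, 44.5 and 46.9 FPKM in control libraries. Its rise of 0.40 ± 0.12 in PDGF-NS against control (limma, adjusted p = 0.031) lost its call with all 3 scalings (adjusted p = 0.17, 0.14 and 0.16) and without control library 1 or 2 or any 1 of the 3 PDGF-NS libraries (0.056 to 0.11). The accessory subunit gene Atp6ap1 had log2 fold changes of 0.06 ± 0.12 in PDGF-NS against control (adjusted p = 0.74) and 0.04 ± 0.12 in IGF-NS against control (adjusted p = 0.83).

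Sqstm1 encodes p62, which links ubiquitin-tagged cargo to the autophagosome and is itself degraded in the lysosome. It had 285, 240 and 269 FPKM in PDGF-NS, 211, 164 and 176 FPKM in IGF-NS, and 185, 157 and 134 FPKM in control libraries. PDGF-NS libraries were higher than all others, by 0.74 ± 0.15 against control (limma, adjusted p = 0.0048) and 0.53 ± 0.15 against IGF-NS (adjusted p = 0.041) on the log2 scale. The call against IGF-NS was lost with a common sum or quantile normalization (0.097 and 0.075) and when any 1 of the 3 PDGF-NS libraries, IGF-NS library 2 or 3, or control library 2 was left out (0.063 to 0.13). Tfeb itself had 4.46, 5.88 and 7.45 FPKM in PDGF-NS, 7.08, 7.29 and 10.2 FPKM in IGF-NS, and 8.03, 6.18 and 4.51 FPKM in control libraries. The PDGF-NS and control libraries overlapped, with a difference of -0.06 ± 0.23 on the log2 scale (limma, adjusted p = 0.87), and in IGF-NS against control it was 0.36 ± 0.23 (adjusted p = 0.28).

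Across both comparisons with the control, 3 of the 31 genes were higher in both sets (Ctsk, Gusb and Atp6v0d1), a pattern shown by 1138 of the 11376 genes tested (10%). In PDGF-NS 12 were higher with no call in IGF-NS, beside 1172 of all genes (10.3%). In IGF-NS 3 were lower with no call in PDGF-NS, beside 289 of all genes (2.54%), and 13 were called in neither, beside 6764 of all genes (59.5%). Both comparisons share the control libraries, so the direct test between PDGF-NS and IGF-NS bears on the difference. Of the 12 genes, 8 were also called in that direct test (Asah1, Cd63, Cd68, Ctsb, Glb1, Npc1, Scarb2 and Sqstm1), beside 494 of the 1172 (42.2%). Cd68, counted among the 12 and the 8, reached the minimum mean only through the PDGF-NS libraries and so had to differ. Its call in the direct test is therefore no support, and it passed in only 11 of the 18 alternatives that tested it. For Atp6v1a, Atp6v1h, Lipa and Npc2 a difference between the sets was not shown. Of the 31 calls over the 3 comparisons, 17 held in all alternatives run, 9 of 15, 3 of 6 and 5 of 10 by comparison. Cd68 in PDGF-NS against control is among the 17 and the 9. Because the minimum mean selected it for its PDGF-NS level, that it held adds no support. In PDGF-NS against IGF-NS the calls of Ctsb, Neu1, Npc1, Cd63 and Gpnmb held. The Glb1 call of that comparison was lost without control library 2, IGF-NS library 1 or 2, or any 1 of the 3 PDGF-NS libraries (limma, adjusted p = 0.054 to 0.11). The Asah1 call was lost without IGF-NS library 1 or 3 or PDGF-NS library 1 or 3 (adjusted p = 0.072 to 0.11). Both were also lost with a common sum (0.084 for Glb1, 0.087 for Asah1) and a replicate block (0.072 and 0.065). With quantiles the Asah1 call was lost too (0.065). The calls that held in PDGF-NS against control were Ctsb, Ctsk, Gusb, Npc1, Cd63, Scarb2, Atp6v1h and Sqstm1, beside Cd68. In IGF-NS against control they were Ctsk, Neu1 and Gpnmb.

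A further 123 tested genes of the same organelle and its supply, in 7 lists, were set beside the 31. The lists were chosen with earlier results of these data known. In PDGF-NS against control 48 rose, 4 fell and 71 did not pass, beside 20.7% higher and 10.2% lower of all genes. With each of the 3 scalings the higher calls in PDGF-NS against control became 12 enzymes, 4 membrane proteins, 5 pump subunits, 2 sorting genes, 4 autophagosome genes and 5 genes of MiT/TFE and mTORC1 control. With median ratios 2 enzymes and 2 genes of MiT/TFE and mTORC1 control were called lower. In IGF-NS against control 17 rose and 2 fell, beside 17.4% and 7.48% of all genes. These became 9 higher and 6 lower with median ratios, 10 and 6 with quantiles and 9 and 1 with only the compared sets in the fit, and the higher calls became 8 without control library 3, 10 without IGF-NS library 1 and 11 without IGF-NS library 2. In PDGF-NS against IGF-NS 25 were higher and 3 lower, beside 8.33% and 7.55% of all genes. The higher calls became 14 with a common sum, 15 with a replicate block, 14 and 15 without IGF-NS library 1 or 2, and 16, 16 and 12 without PDGF-NS library 1, 2 or 3, and the lower calls became 1 without PDGF-NS library 2 or 3. Of 64 calls of the genes that the naming rule picked from these lists, 41 held in every alternative.

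Of 33 other lysosomal enzymes and activators, 13 rose and 0 fell in PDGF-NS against control, with a median log2 fold change of 0.32. All genes tested gave 20.7% higher and 10.2% lower. Prcp, a carboxypeptidase that cuts angiotensins and bradykinin fragments, averaged 70.1 ± 2.38 FPKM in IGF-NS and 25.3 ± 5.71 FPKM in control libraries (SD, n = 3 each), a log2 fold change of 1.46 ± 0.15 (limma, adjusted p = 0.00017). In PDGF-NS, with 99.6 ± 4.92 FPKM, Prcp was 1.96 ± 0.15 above control on the log2 scale (adjusted p = 1.5e-05). Ids (iduronate sulfatase) rose by 0.95 on the log2 scale in PDGF-NS against control. Acp5 (an acid phosphatase), counted among the 13, reached the minimum only through the PDGF-NS libraries, with 1.88 ± 0.66 FPKM in PDGF-NS, 0.66 ± 0.17 FPKM in IGF-NS and 0.48 ± 0.20 FPKM in control libraries. Of 21 other membrane proteins and transporters, 6 rose and 1 fell in PDGF-NS against control, beside the same shares of all genes.

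Of 13 other tested proton pump subunits, 8 rose and 1 fell in PDGF-NS against control, with a median log2 fold change of 0.58. Among all genes tested 20.7% rose and 10.2% fell. Atp6v1d, Atp6v1b2 and Atp6v1c1 of the ATP-splitting part rose by 1.51, 1.11 and 0.83, and Atp6v0e2 of the membrane part fell by 0.74. The Atp6v0e2 call was lost without control library 1 (adjusted p = 0.051) or PDGF-NS library 2 (adjusted p = 0.068). With each of the 3 scalings, 5 of these subunits were called higher and 1 lower.

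Of 9 genes of mannose 6-phosphate tagging and sorting, 4 rose and 2 fell in PDGF-NS against control. The shares over all genes tested were 20.7% and 10.2%. Igf2r, which encodes the receptor that carries tagged hydrolases to the lysosome and also takes up IGF-2, rose in both sets. It averaged 56.4 ± 5.39 FPKM in PDGF-NS, 35.7 ± 2.06 FPKM in IGF-NS and 22.7 ± 2.91 FPKM in control libraries (SD, n = 3 each). Igf2r differed on the log2 scale by 1.28 ± 0.13 in PDGF-NS against control, 0.64 ± 0.13 in IGF-NS against control (limma, adjusted p = 0.0068) and 0.64 ± 0.13 in PDGF-NS against IGF-NS (adjusted p = 0.0084). Sort1, the sortilin receptor that sorts some hydrolases without that tag, fell by 0.75 and the adaptor gene Gga3 by 0.74 in PDGF-NS against control.

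Of 25 autophagosome genes, 8 rose and 0 fell in PDGF-NS against control, beside 20.7% and 10.2% of all genes tested. In IGF-NS against control 2 rose (Atg3 and Becn1) and 1 fell (Map1lc3a), beside 17.4% and 7.48% of all genes. Of those 3, Atg3 was called in all 19 alternatives, Becn1 in 12 and Map1lc3a in 7. Optn, a cargo receptor like p62, rose by 1.37 on the log2 scale in PDGF-NS against control and by 1.65 against IGF-NS, with means of 18.5 ± 3.63 FPKM in PDGF-NS and 5.16 ± 0.66 FPKM in IGF-NS. Map1lc3b, whose protein coats the autophagosome, and the cargo receptor Nbr1 rose by 0.72 and 0.66 against control. Atg3, which attaches the coat protein to lipid, was higher in both sets, by 0.91 in PDGF-NS and 0.85 in IGF-NS against control.

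Of 20 tested genes of MiT/TFE and mTORC1 control, 8 rose and 0 fell in PDGF-NS against control. All genes tested gave 20.7% higher and 10.2% lower there, and 17.4% and 7.48% in IGF-NS against control. Tfe3 was in the list but stayed under the minimum mean, so it was not tested. It is an X-linked gene, and most X-linked symbols were listed at 0, so no level is read from its row. Mitf, the relative of Tfeb, averaged 9.30 ± 0.54 FPKM in PDGF-NS and 4.07 ± 0.44 FPKM in IGF-NS (log2 fold change 1.03 ± 0.16, limma, adjusted p = 0.002), and rose by 1.19 against control. Rragd, a small GTPase that brings mTORC1 to the lysosome, and the folliculin partners Fnip2 and Fnip1 rose by 1.12, 0.78 and 0.70 in PDGF-NS against control. In IGF-NS against control the 2 calls of this list were Zkscan3, a repressor of autophagy genes in human cells, which rose by 0.84, and Rheb, the activator of mTORC1, which fell by 0.55. The Rheb call was lost without control library 1 or 3 or IGF-NS library 1 or 2 (adjusted p = 0.08 to 0.11). Of 2 tested cystatins, inhibitors of cathepsins, Cstb rose by 1.03 in PDGF-NS against control.

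**Figure D4:**
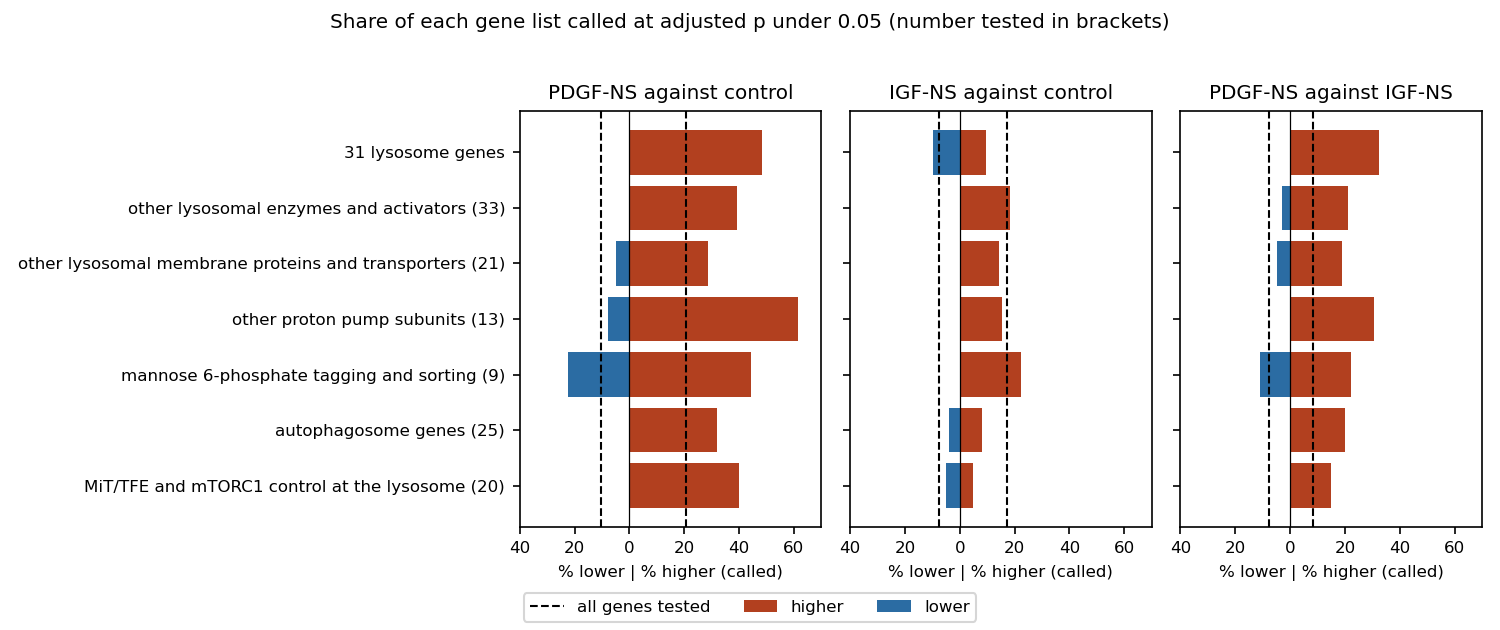
Share of the 31 lysosome genes and of 6 other gene lists called higher (right of 0) or lower (left of 0) in each comparison, in percent of the genes tested in the list, with the share of all genes tested as dashed lines. In PDGF-NS against control the 31 lysosome genes reach 48.4% higher beside 20.7% of all genes, and in IGF-NS against control they reach 9.68% on each side.

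Promoters are shown because the CLEAR element is the sequence by which TFEB and its relatives are known to bind lysosome genes. RefSeq promoter windows (build GRCr8) around the gene's start, 300 bases each, matched 26 of the 31 genes. The core of the CLEAR element, TCACGTGA, was searched on both strands (it is its own reverse complement) and contains the shorter E-box CACGTG. The core was in the windows of 4 of the 26 genes (15.4%), Ctsd, Mcoln1, Lamp1 and Atp6v0d1, beside 260 of 33469 windows in the table (0.777%). CACGTG was in 8 of the 26 (30.8%), beside 2148 of all windows (6.42%). All windows were counted, also those of genes not tested here, while the 26 genes passed a minimum mean. These shares therefore do not compare like sets. The 4 windows with the core follow, each 5′ to 3′ on the gene's strand, with capitals for CACGTG and, where the core is complete, for its flanking T and A. They lie at chr1:206968772-206969071 (minus strand) for Ctsd, chr12:6358008-6358307 (plus strand) for Mcoln1, chr16:83075014-83075313 (minus strand) for Lamp1 and chr19:50357199-50357498 (minus strand) for Atp6v0d1.
Ctsd: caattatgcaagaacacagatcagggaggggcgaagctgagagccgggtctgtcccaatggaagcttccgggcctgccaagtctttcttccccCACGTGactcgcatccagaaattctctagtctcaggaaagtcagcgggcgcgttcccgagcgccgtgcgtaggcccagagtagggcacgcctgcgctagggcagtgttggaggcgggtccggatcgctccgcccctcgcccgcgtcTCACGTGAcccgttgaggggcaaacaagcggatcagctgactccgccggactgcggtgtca
Mcoln1: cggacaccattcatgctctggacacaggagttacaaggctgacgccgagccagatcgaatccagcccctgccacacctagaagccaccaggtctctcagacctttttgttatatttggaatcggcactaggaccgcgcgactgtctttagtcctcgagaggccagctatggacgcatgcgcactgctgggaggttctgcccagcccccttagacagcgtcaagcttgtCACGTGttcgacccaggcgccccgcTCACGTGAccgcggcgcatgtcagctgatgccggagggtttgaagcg
Lamp1: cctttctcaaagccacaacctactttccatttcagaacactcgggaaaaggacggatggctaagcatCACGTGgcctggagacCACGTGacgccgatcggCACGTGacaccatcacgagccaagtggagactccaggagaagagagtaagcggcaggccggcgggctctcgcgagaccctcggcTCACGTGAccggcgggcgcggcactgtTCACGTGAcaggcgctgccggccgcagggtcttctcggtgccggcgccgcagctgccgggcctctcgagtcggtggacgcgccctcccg
Atp6v0d1: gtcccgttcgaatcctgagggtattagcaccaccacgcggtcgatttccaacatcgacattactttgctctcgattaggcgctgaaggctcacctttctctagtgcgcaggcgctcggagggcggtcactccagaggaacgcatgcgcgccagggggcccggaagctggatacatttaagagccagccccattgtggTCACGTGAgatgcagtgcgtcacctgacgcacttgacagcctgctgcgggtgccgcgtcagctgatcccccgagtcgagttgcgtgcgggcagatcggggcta

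The core started 11 bases before the start in Ctsd, 53 bases before it in Atp6v0d1, and 66 and 39 bases before it in Lamp1. In Mcoln1 the core began 3 bases after the start. Of these 4 genes only Atp6v0d1 was called in any comparison. Of all genes tested, 59.5% were called in neither comparison with the control. CACGTG without the complete core was in the windows of Ctsf, Cd63, Glb1 and Gaa, of which Cd63 and Glb1 were called in PDGF-NS against control. No window was available here for Ctsb, Asah1, Psap, Hexa and Atp6v1h, so these genes were not searched. Of the genes searched, those with the largest called changes were not among the 4 with the core. A link between these letters and the calls was not tested. A match describes these letters only, and no match says only that these letters are not in the window.

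Of the 6 rows under the minimum, Ctsc, Ctss and Ctsz were near or at 0. Lamp2, Gla and Atp6ap2 were listed at 0 in all 9 libraries, and all 3 lie on the X chromosome in the RefSeq gene table. Of 564 X-linked symbols, 502 (89%) were listed at 0, beside 19.2% of the symbols on other chromosomes, and the widely expressed genes Pgk1, Hprt1 and Msn were among them. A listed 0 for Lamp2, Gla or Atp6ap2 is therefore no measure of its level.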

How the data were processed

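RNA-seq levels of 9 libraries in 3 sets of 3 were analysed. FPKM were computed by the authors and deposited as 1 table, with GSNAP and Cufflinks named per the submitters' processing notes. Not given in the sources used here were their versions, the genome build and the annotation. A placeholder of 999999999 stood in 10 cells of 4 genes, which were left out, and 5795 rows had no symbol. Libraries were grouped by the column each record names. The 11376 genes averaging 1 FPKM or more were tested with limma 3.58.1 (R 4.3.3, trend and empirical Bayes) on log2(FPKM + 1), all 9 libraries in 1 fit with set as the only term, two-sided, Benjamini-Hochberg adjustment within a comparison and a threshold of 0.05. Fold changes refer to that transformed scale and so understate changes of low genes. FPKM divide each library by its total, so a change of abundant genes shifts all others. FPKM keep no read depth, and low values stepped at a common ratio for only 8.18% to 16.7% of low genes, so reads were not recovered and no counting interval is given. Tables were made with Python 3.11.15, pandas 2.3.3 and numpy 2.4.6, and the fit was tested on simulated data.

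The members and the other gene lists were chosen with earlier results of these data known. All members are named, and of each other list up to 4 called genes with the largest change per comparison. Alternatives were pseudocounts of 0.1 and 0.5, no filter, a minimum mean of 5 FPKM, 3 scalings, no variance trend, a fit of the compared sets only, a replicate block, leaving out each library, and, added after seeing the data, counting Ctsl1 as a member.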

Additional observations from a re-analysis of the deposited data

Results flagged for a closer look

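Cd63 stood out because the PDGF-NS and IGF-NS libraries lay on opposite sides of the control libraries. The levels were 954, 1127 and 972 FPKM in PDGF-NS, 462, 315 and 452 FPKM in IGF-NS, and 591, 463 and 483 FPKM in control libraries. The direct test between PDGF-NS and IGF-NS gave a log2 difference of 1.33 ± 0.17 (limma, adjusted p = 0.00068), with each of the 3 PDGF-NS libraries above each of the 3 IGF-NS libraries. The highest IGF-NS library and the lowest control library differed by less than 1 FPKM.

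Gpnmb stood out in the same way, with 1000, 562 and 529 FPKM in PDGF-NS, 241, 232 and 201 FPKM in IGF-NS, and 504, 415 and 510 FPKM in control libraries. The log2 difference between PDGF-NS and IGF-NS was 1.57 ± 0.22 (limma, adjusted p = 0.0011), and it was 1.28 ± 0.15 without PDGF-NS library 1 (adjusted p = 0.00074). The lowest PDGF-NS library was 18.8 FPKM above the highest control library.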

How the results depend on the processing

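None of the 31 lysosome calls changed sign under the 19 alternatives, and 17 of them passed the threshold in all that tested them. Cd68 in PDGF-NS against control is counted among the 17, although it had to differ, and it is not tested at a minimum mean of 5 FPKM. The 15 higher genes in PDGF-NS against control became 9 with a common sum, 10 with median ratios and 11 with quantiles, and 10 to 16 without 1 library. The 10 higher genes in PDGF-NS against IGF-NS became 6 with a common sum, where 1 was lower, and 5 to 14 without 1 library. The 3 higher genes in IGF-NS against control became 1 with median ratios, and 2 to 3 without 1 library. The 3 lower genes of that comparison became 4 with median ratios, and 2 to 3 without 1 library. Counting Ctsl1 gave 16, 11 and 3 higher genes in these 3 comparisons.

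Over all genes, the 1976 higher in IGF-NS against control became 1144 with median ratios and 1214 with quantiles, and 1181 to 1960 without 1 library. The 2355 higher in PDGF-NS against control ranged from 1535 to 2482 without 1 library, and the 1166 lower became 1752 with quantiles. In PDGF-NS against IGF-NS the 948 higher ranged from 548 to 1096 and the 859 lower from 466 to 1047 without 1 library, and 1480 were lower with a common sum. Higher genes were 66.9% of calls in PDGF-NS against control, and 50.3%, 51% and 49.1% with the 3 scalings. They were 69.9% in IGF-NS against control, and 48.4% with median ratios and 50.9% with quantiles, and 52.5% in PDGF-NS against IGF-NS, and 33.2% with a common sum. The cause was not tested.

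Replicate numbers did not pair the libraries, with correlations of -0.276 to 0.253 between same-numbered libraries. With a replicate block, 13 lysosome genes were higher in PDGF-NS against control and 8 in PDGF-NS against IGF-NS. With 3 libraries a set and no read depth, small differences of low genes such as Cd68 and Tfeb are measured with little precision.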
